A study of Mus musculus with 6 samples.

Results

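Thrombospondins are secreted, matrix-binding glycoproteins, and CD36, CD47 and SIRPα are cell surface receptors through which they, or one another, act. The present results concern 6 genes, the thrombospondins Thbs1, Thbs2 and Thbs3 and the receptors Cd36, Cd47 and Sirpa, picked by gene symbol from the 54532 genes of the count table. Each symbol matched a single gene, and all 6 were among the 14522 genes with enough counts to be tested. The genes were examined in RNA-seq libraries of cardiac macrophages from C57BL/6 mice, isolated as Ly6G-negative, CD11b-positive cells from individual hearts 7 days into a non-reperfused infarct (the left anterior descending artery was tied off for good) made at 12 weeks of age. In 3 control hearts both copies of the gene of the integrin α5 chain carried loxP sites (ITGA5 fl/fl), and in 3 littermate hearts the same floxed alleles were combined with LyzM-Cre (Myα5KO). Cre recombinase is driven there by the lysozyme M promoter, which is active in macrophages, monocytes and neutrophils, and the controls carried no Cre, so effects of Cre and of the loss of α5 cannot be told apart.

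Thrombospondin-1 is stored in platelets and made by macrophages, fibroblasts and endothelial cells after injury. It restrains angiogenesis through CD36, limits nitric oxide signaling through CD47, and can release TGF-β from its latent complex. Thrombospondin-2 shares this domain plan, including the type 1 repeats that bind CD36, whereas thrombospondin-3 lacks them. CD47 on any cell is also the ligand of SIRPα on macrophages, a pairing that restrains phagocytosis.

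Libraries held between 15424451 and 18419287 counts, with each Myα5KO library deeper than each control. Itga5 kept 8.02% of its control level in Myα5KO macrophages (log2 fold change -3.64, standard error (SE) 0.08, edgeR adjusted p 4.42e-12), as the labels state, and Lyz2, the gene that carries the Cre insertion, kept 53% (-0.92, SE 0.08, edgeR adjusted p 4.27e-05). Values are CPM (counts scaled to library size with TMM factors) or FPKM, which divide by gene length as well and serve to compare one gene with another. A negative log2 fold change means lower expression in Myα5KO than in control macrophages, and genes with an edgeR adjusted p of 0.05 or less over all tested genes are described as changed. Means are given ± SD with n = 3 in each group. Of the tested genes, 8.75% were changed, 3.56% upward and 5.19% downward (517 and 754 genes, against 1212 and 518 with scaling by library totals alone).

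The 6 genes differed widely in level. Per length, the order in control macrophages was Thbs1 (1028 ± 84.7 FPKM), Sirpa (244.5 ± 11.8 FPKM), Cd36 (116.6 ± 17.6 FPKM), Cd47 (48.9 ± 5.35 FPKM), Thbs2 (3.84 ± 0.77 FPKM) and Thbs3 (1.1 ± 0.225 FPKM). The order was the same in Myα5KO macrophages, and no 2 neighbours in it overlapped between libraries of a group. Thbs1 ranked 29th of 14522 tested genes by mean control FPKM, and it accounted for 98.7 ± 0.22% of the summed FPKM of the 5 thrombospondin genes in control libraries and 98.3 ± 0.311% in Myα5KO libraries. Thbs2 and Thbs3 were thus minor thrombospondin mRNAs in both genotypes.

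**Figure D1:**
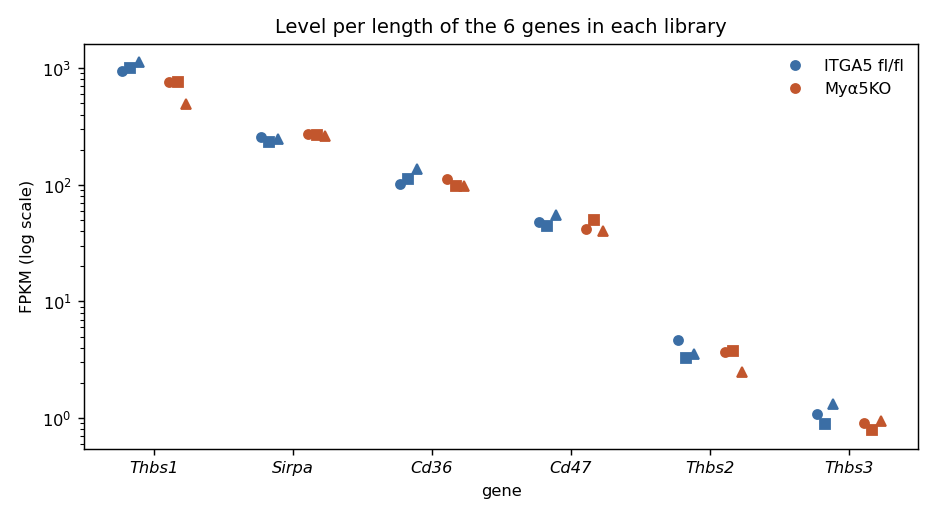
FPKM of each gene in each library on a log axis, with ITGA5 fl/fl in blue, Myα5KO in orange, and circle, square and triangle for replicates 1, 2 and 3. Thbs1 lies highest (491 to 1120 FPKM) and Thbs3 lowest (0.785 to 1.33 FPKM), and the order of the genes is the same in both groups.

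Among the 6 genes, 1 was changed, Thbs1, which fell. This count is read against the 8.75% of all tested genes that were changed, and 1 in 6 genes says little about the group. Libraries of both groups did not overlap for Thbs1 (all Myα5KO lower) and Sirpa (all Myα5KO higher), against 28.6% of all tested genes with separated groups.

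Thbs1 (ENSMUSG00000040152, GRCm38 chromosome 2, 118111876 to 118127133, plus strand, protein coding) had 5799, 6196 and 6818 CPM in the ITGA5 fl/fl libraries 1, 2 and 3. The Myα5KO libraries 1, 2 and 3 had 4668, 4595 and 3036 CPM. All Myα5KO libraries were below all controls. Replicates 1 and 2 retained 74.4% and 73.3% of the control mean, while replicate 3 stood lower, at 48.4%. Myα5KO replicate 3 also stood apart from its group over all genes: the chi-square per degree of freedom between libraries was 14.8 and 9.93 for its pairs with replicates 1 and 2, and 5.61 to 7.72 for the other pairs within a group. Mean expression was 6271 ± 514 CPM in control and 4100 ± 922 CPM in Myα5KO macrophages, so that 65.4% of the control level remained (log2 fold change -0.61, SE 0.14, adjusted p 0.0135 in edgeR). Thbs1 reads made up 0.609 ± 0.0496% of all counts in controls and 0.421 ± 0.0931% in Myα5KO libraries. By count, Thbs1 ranked 6th or 7th of all genes in the control libraries, and 7th, 8th and 16th in Myα5KO replicates 1, 2 and 3.

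The fall in Thbs1 had the same direction in every fit, but its call was lost without ITGA5 fl/fl replicate 3, on the FPKM scale and at stricter thresholds. Without Myα5KO replicate 3, which had the lowest value, the log2 fold change shrank to -0.44 and was still called (adjusted p 0.00636 in edgeR). When the highest library, ITGA5 fl/fl replicate 3, was dropped instead, it was -0.55 and was not called (adjusted p 0.0663 in edgeR; its alternatives together spanned adjusted p values of 1.93e-13 to 1). It was also not called by limma on log2(FPKM + 1), with -0.64 and an adjusted p of 0.0866.

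**Figure D2:**
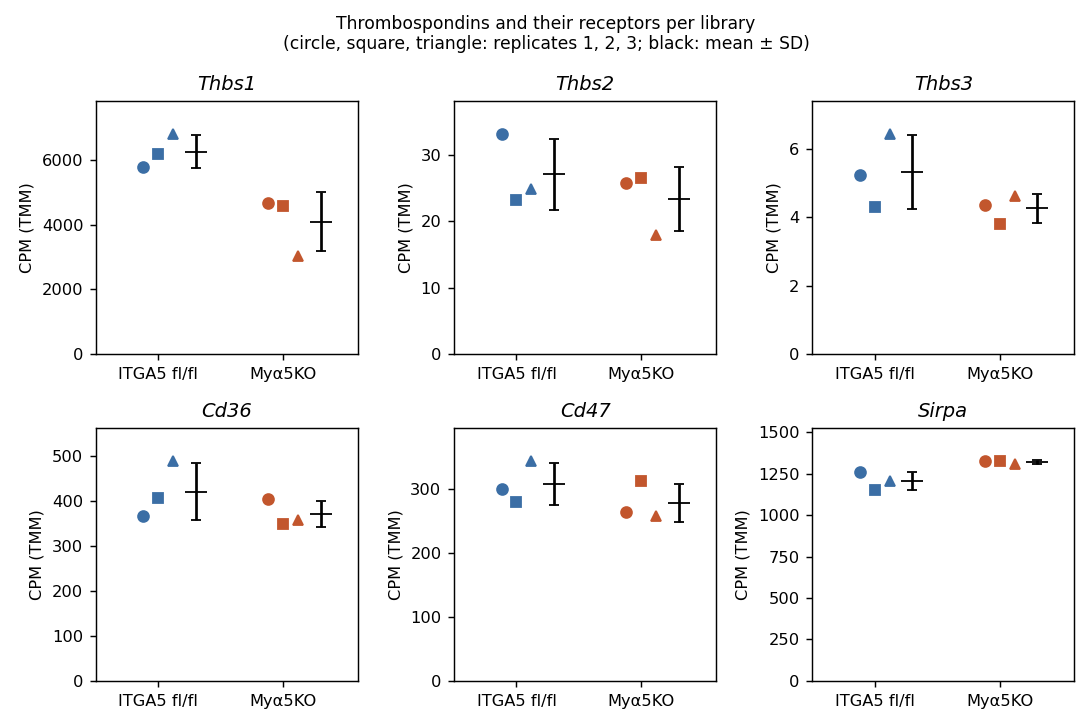
CPM of the 6 genes in each library, with ITGA5 fl/fl in blue and Myα5KO in orange, circle, square and triangle for replicates 1, 2 and 3, and the black mark and bar for the mean ± SD of 3 libraries. Thbs1 runs from 5799 to 6818 CPM in controls and from 3036 to 4668 CPM in Myα5KO, whereas the groups overlap for Thbs2, Thbs3, Cd36 and Cd47.

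**Figure D3:**
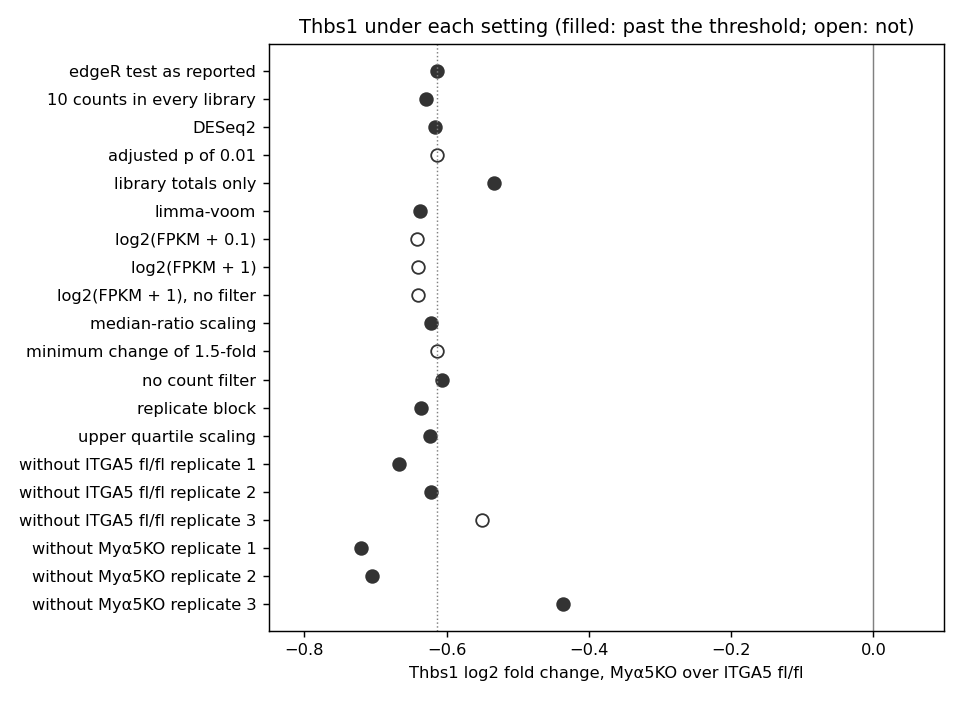
Log2 fold change of Thbs1 (x axis, Myα5KO over ITGA5 fl/fl) in the edgeR test as reported and under each of 19 alternatives, filled where the threshold was passed and open where it was not. The values run from -0.72 to -0.44, and 6 of the 19 alternatives are open.

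Cell composition was examined beside this result, since in bulk RNA fewer cells of a type and less RNA per cell cannot be told apart. Platelets are a rich store of thrombospondin-1 protein. Of 11 platelet and megakaryocyte markers, 2 (Gp1bb and Gp6) had 0 counts in all libraries, which allows up to 3 counts in each. Others were detected, with 750 counts over all libraries for Ppbp and 200 for Itga2b. Of 7 tested markers 0 were changed in edgeR (0 also at an unadjusted p under 0.05), and 6 had a negative log2 fold change (median -0.20). The summed level of the 11 markers was 226.9 to 353 CPM in controls and 237.8 to 260.5 CPM in Myα5KO, nearly all of it Pf4, a chemokine gene that macrophages also express. Fibroblast markers, which summed to 1707 to 2001 CPM in controls and 1275 to 1666 CPM in Myα5KO, had 9 of 10 genes with a negative log2 fold change and 1 (Postn) changed. Macrophage markers summed to 16003 to 16308 CPM and 14232 to 15003 CPM, with 1 of 10 higher (Fcgr1) and 1 lower (Cd14). Cd14 alone went from a mean of 4750 to 3490 CPM, and the other macrophage markers were not called, among them Adgre1 (-0.05) and Csf1r (-0.02). Monocyte markers were higher, at 1555 to 1712 CPM against 2080 to 2330 CPM, with 5 of 8 changed upward, including Ccr2 and Ly6c2. Granulocyte markers rose from 37.8 to 55.1 CPM to 72.4 to 193.6 CPM, with 5 of 7 tested genes changed upward, and the highest sum was that of Myα5KO replicate 3. Cardiomyocyte markers were lower, at 21.9 to 24.5 CPM against 14.3 to 18.1 CPM, with 3 of 7 tested genes changed downward. Endothelial markers overlapped (446.1 to 458.2 CPM and 444 to 538.6 CPM), with 1 of 9 higher (Kdr) and 1 lower (Cldn5). B cell markers overlapped in sum (470.3 to 587.3 CPM and 516 to 811.4 CPM), with a positive log2 fold change for 6 of 6 genes and 2 changed upward. Dendritic cell markers overlapped too, with 1 of 7 higher, and the 1 tested adipocyte gene (Cfd) was lower. T and NK cell markers summed to 23.2 to 25.9 CPM and 28.4 to 29.5 CPM, and erythroid markers to 4.63 to 8.82 CPM and 4.05 to 5.63 CPM. The part of these cell types in the level of Thbs1, or of any other gene reported here, was not tested.

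Thbs2 (ENSMUSG00000023885, chromosome 17, 14665500 to 14694235, minus strand, protein coding) had 33.1, 23.1 and 24.8 CPM in ITGA5 fl/fl and 25.7, 26.5 and 17.8 CPM in Myα5KO libraries. The groups overlapped and the gene was not called (log2 fold change -0.21, SE 0.15, adjusted p 0.455 in edgeR). Myα5KO replicate 3 was the lowest library for Thbs2, as it was for Thbs1. Thbs3 (ENSMUSG00000028047, chromosome 3, 89215180 to 89226837, plus strand, protein coding) rested on only 71 to 113 counts per library, with 5.23, 4.29 and 6.43 CPM in controls and 4.37, 3.8 and 4.63 CPM in Myα5KO. Its log2 fold change was -0.32 (SE 0.18, edgeR adjusted p 0.318), and the gene was not called, with the groups overlapping. The whole span of Thbs3 is covered by Mtx1 on the opposite strand, and the strand setting of the counting is not stated, so reads of the 2 genes may not be told apart. No 50-base word was shared between the longest coding transcripts of Thbs1, Thbs2 and Thbs3.

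The remaining family members lie outside the 6 genes and were also scarce. Thbs4, a matrix protein of heart and tendon, had 13.2 ± 2.41 CPM in control and 11.5 ± 2.74 CPM in Myα5KO libraries. Comp, the cartilage thrombospondin, had 12.8 ± 1.38 CPM and 11.7 ± 1.37 CPM. Of these 2 genes 0 were changed in edgeR, with 0 at an unadjusted p under 0.05 (log2 fold changes -0.20 and -0.13) and 0 with each of the 3 other scalings.

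Cd36 (ENSMUSG00000002944, chromosome 5, 17781690 to 17888801, minus strand, protein coding) encodes a scavenger receptor for oxidized lipids, fatty acids and thrombospondins. It had 365.5, 406.3 and 489.3 CPM in ITGA5 fl/fl and 403.9, 349.5 and 358.3 CPM in Myα5KO libraries. The groups overlapped, and the gene was not called (log2 fold change -0.18, SE 0.10, adjusted p 0.289 in edgeR). Cd47 (ENSMUSG00000055447, chromosome 16, 49800533 to 49915010, plus strand, protein coding) had 299.4, 279.9 and 344.3 CPM in controls and 264.1, 312.3 and 258.1 CPM in Myα5KO. Its groups also overlapped (log2 fold change -0.15, SE 0.09, edgeR adjusted p 0.365). For both receptors ITGA5 fl/fl replicate 3 was the highest library, as for Thbs1 and Thbs3.

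Sirpa (ENSMUSG00000037902, chromosome 2, 129592835 to 129632228, plus strand, protein coding), the inhibitory receptor of macrophages that binds CD47, went the other way. It had 1259, 1150 and 1208 CPM in ITGA5 fl/fl and 1329, 1327 and 1309 CPM in Myα5KO libraries. All Myα5KO libraries lay above all controls, by a narrow margin, at 110% of the control level (log2 fold change 0.13, SE 0.07). This did not pass the threshold (edgeR adjusted p 0.274), nor did it under any alternative, where the log2 fold change ran from 0.10 to 0.21 and the adjusted p from 0.0524 to 1.

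Levels of ligand and receptor were also set against each other within a library, on the FPKM scale. Thbs1 exceeded Cd36 8.88 ± 0.584 times in controls and 6.54 ± 1.41 times in Myα5KO libraries. Its ratio to Cd47 was 21.1 ± 1.54 and 15.2 ± 3.06, and the ratio of Sirpa to Cd47 was 5.04 ± 0.483 and 6.12 ± 0.592. In each of these 3 ratios all Myα5KO libraries lay on one side of all controls. The exact two-sided permutation p was 0.1, the smallest that 3 against 3 libraries allow, and 0.125 after adjustment over 5 such measures. The ratios that hold Thbs1 are not separate from its fall. For Sirpa over Cd47 the margin was narrow, at 5.43 in Myα5KO replicate 2 against 5.38 in ITGA5 fl/fl replicate 1.

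Start regions are shown for 4 of the 6 genes, to let the base composition of a scarce thrombospondin pair be read beside that of the abundant receptors. The windows come from RefSeq on GRCm38.p6 and cover bases 250 to 51 before the annotated start, 5′ to 3′ on the strand of the gene, the start being that of the RefSeq entry. Thbs1 and Sirpa have no entry in that table. The RefSeq starts used for Cd36 and Cd47 lie inside the gene spans given above, which run from the outermost annotated transcript, so these windows precede an internal start. Cd47 has 2 overlapping windows in the table, of which the first is shown. Capitals mark matches, on either strand, to any of 5 motifs. These were the GC box, spelled GGGCGG, the CCAAT box, the TATA box, spelled TATAAA, the AP-1 motif, spelled TGANTCA, and the core of the hypoxia response element, spelled ACGTG. The windows lie at chr17:14694313-14694512 (Thbs2, minus strand), chr3:89214930-89215129 (Thbs3, plus strand), chr5:17835947-17836146 (Cd36, minus strand) and chr16:49855404-49855603 (Cd47, plus strand).
Thbs2: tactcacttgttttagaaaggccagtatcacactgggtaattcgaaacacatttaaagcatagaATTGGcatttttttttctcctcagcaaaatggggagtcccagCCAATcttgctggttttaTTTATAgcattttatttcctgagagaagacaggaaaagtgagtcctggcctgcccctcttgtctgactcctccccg
Thbs3: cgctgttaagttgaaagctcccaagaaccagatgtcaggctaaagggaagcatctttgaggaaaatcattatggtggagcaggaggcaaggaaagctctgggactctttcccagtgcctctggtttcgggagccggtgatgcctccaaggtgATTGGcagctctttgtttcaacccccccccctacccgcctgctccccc
Cd36: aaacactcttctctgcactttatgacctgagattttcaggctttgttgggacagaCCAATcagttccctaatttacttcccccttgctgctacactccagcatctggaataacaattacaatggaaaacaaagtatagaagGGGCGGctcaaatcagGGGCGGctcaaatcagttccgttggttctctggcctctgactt
Cd47: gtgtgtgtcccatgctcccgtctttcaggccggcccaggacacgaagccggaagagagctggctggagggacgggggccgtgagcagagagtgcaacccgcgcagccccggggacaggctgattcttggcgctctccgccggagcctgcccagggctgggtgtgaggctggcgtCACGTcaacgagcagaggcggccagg

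The Cd47 window was the richest in G and C (69.5%, with 16 CG pairs), against a median of 51.5% and 4 CG pairs over 32514 windows of mouse genes, while Thbs2 (42.5%, 2 pairs) and Cd36 (45.5%, 3 pairs) lay below the median share and Thbs3 (55%, 4 pairs) a little above it. Cd36 held 2 GC boxes, a motif found in 24.8% of all windows, and 1 CCAAT box (28.4%). Thbs2 held 2 CCAAT boxes and 1 TATA box (9.08%), and Thbs3 1 CCAAT box. Cd47 held 1 hypoxia response core (13% of all windows). No AP-1 motif, present in 5.55% of windows, was found in the 4 sequences. A match to these letters is a description of the window only.

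The wider thrombospondin pathway was examined with lists of genes by role. Each was read beside all tested genes, whose median log2 fold change was 0.02 and of which 5.19% fell and 3.56% rose. The lists are short, and no set test was run, so their counts are a description. Among 14 further receptors and partners of thrombospondins, 2 fell and 0 rose (median -0.17). These were Jag1, a Notch ligand, which went from 104.8 ± 10.4 to 64.3 ± 9.56 CPM (log2 fold change -0.71, SE 0.10, edgeR adjusted p 0.00108), and Sdc4, a heparan sulfate proteoglycan, from 695.2 ± 64.7 to 507.1 ± 27.8 CPM (-0.46, SE 0.08, edgeR adjusted p 0.00378). Neither Itgb1, the β1 integrin chain, nor Calr and Lrp1, which together form a thrombospondin receptor complex, was called, with log2 fold changes of -0.09, -0.21 and -0.17.

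Around CD36, 4 of 22 genes of its signaling complex and of lipid uptake fell and 1 rose (median 0.03). With scaling by library totals the split turned, to 5 higher and 2 lower. The lower genes were the kinases Src (log2 fold change -0.55) and Fyn (-0.27), the focal adhesion adaptor Pxn (-0.51) and the pattern receptor Tlr2 (-0.30). Other signaling genes of the list were not called, among them Lyn (-0.16), Tlr6 (-0.20), Vav1 (0.09) and Tlr4 (0.31, edgeR adjusted p 0.0592). Pxn went from 713.5 ± 25.7 to 501.1 ± 43.4 CPM (SE 0.08, edgeR adjusted p 0.00143). Nr1h3, which encodes the oxysterol receptor LXRα, was higher (0.31, edgeR adjusted p 0.0492) at 18.6 ± 1.41 and 23.1 ± 0.692 CPM, but this call was lost in 16 of 19 alternatives, among them all 6 that left out a library and DESeq2. Pparg, the lipid-sensing receptor that drives Cd36 transcription, was not called (0.25, edgeR adjusted p 0.0938). When ITGA5 fl/fl replicate 1 or 2 was left out, 2 genes of this list were called, and 3 without Myα5KO replicate 1, all lower. Tlr2 and Fyn each lost their call in 4 of the 6 fits without a library.

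In the CD47 and SIRPα axis, 2 of 21 genes rose and 2 fell (median 0.02). Ptpn6, which encodes the phosphatase SHP-1 that SIRPα recruits, rose from 177 ± 11.2 to 255.7 ± 5.3 CPM (log2 fold change 0.53, SE 0.07, edgeR adjusted p 0.00043), whereas Ptpn11, encoding SHP-2, was not called (-0.03). The kinases Jak2 and Syk fell, by 0.64 and 0.44 on the log2 scale, with 243.5 ± 20 against 156.2 ± 19.1 CPM for Jak2 and 894.3 ± 47.5 against 659 ± 39.2 CPM for Syk. Sirpb1a, an activating relative of Sirpa, rose from 21.4 ± 2.97 to 27.4 ± 0.856 CPM (0.36, SE 0.10, edgeR adjusted p 0.0447), a call that 14 of 19 alternatives did not make, among them 5 of the 6 without a library, DESeq2 and median-ratio scaling. Its neighbours Sirpb1b and Sirpb1c had log2 fold changes of 0.28 and 0.08 and were not called. The 3 Sirpb1 genes are near-identical in part: 34.7% of the 50-base words of Sirpb1a occur in Sirpb1b and 22.7% in Sirpb1c, so the split of reads among them is uncertain. None of the words of Sirpa occurred in them. Of 12 other inhibitory receptors of myeloid cells, 1 rose, beside 8.75% of all tested genes changed, which says little about the list. It was Lair1 (0.29, edgeR adjusted p 0.0097), with 158.7 ± 3.41 and 194.6 ± 4.19 CPM. Its call was lost once control replicate 3 was dropped (adjusted p 0.0551 in edgeR, within 0.000563 to 1 over its alternatives), and 4 genes of that list were higher with scaling by library totals.

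Genes of processes in which thrombospondin-1 takes part, or of similar function, were examined in the same way. A link of their levels to that of Thbs1 was not tested. Of 12 tested genes of latent TGF-β and its activation, 4 fell and 0 rose (median -0.26), beside 5.19% lower and 3.56% higher of all tested genes. The 4 were Ltbp1 (log2 fold change -0.88), Lrrc32 (-0.58), Tgfb3 (-0.50) and Furin (-0.32). They encode a latent TGF-β binding protein, a membrane anchor of latent TGF-β, a ligand and a convertase. Tgfb1 (-0.19, edgeR adjusted p 0.0938) and Tgfb2 (-0.56, edgeR adjusted p 0.158) were not called. Of 16 other matricellular genes 4 fell and 0 rose (median -0.14). Fn1, encoding fibronectin, the ligand of α5β1 integrin, went from 3380 ± 832 to 2032 ± 425 CPM (-0.73, SE 0.17, edgeR adjusted p 0.0163). It was followed by Emilin2 (-0.45), Postn (-0.40), also a fibroblast marker above, and Ecm1 (-0.39). The study itself picked Emilin2 and Ecm1 from these samples, so their count is not independent evidence of a direction. Fn1 lost its call in 8 of 19 alternatives, among them DESeq2 and the fits that left out control replicate 2 or 3. Without a library, Postn lost its call in 3 of 6 fits and Ecm1 in 2, as did Furin of the TGF-β list. Of the matricellular list 0 genes were higher and 2 lower without ITGA5 fl/fl replicate 2, 1 higher and 1 lower without ITGA5 fl/fl replicate 3, and 1 higher and 3 lower without Myα5KO replicate 3 or with library totals.

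Of 22 tested proteins that share the type 1 repeat with thrombospondin-1, 4 fell and 1 rose (median -0.08). Adamts9, encoding a matrix protease, had the largest change, from 33.4 ± 3.43 to 19.2 ± 0.464 CPM (log2 fold change -0.79, SE 0.09, edgeR adjusted p 0.000243). Adamts2, Ctgf and Adamts4 fell by 0.37, 0.36 and 0.29 on the log2 scale, and Spon1 rose by 0.43. These calls depended on single libraries. Calls were 1 higher and 1 lower without ITGA5 fl/fl replicate 1 or Myα5KO replicate 3 and with library totals, 2 higher and 1 lower without Myα5KO replicate 1, 0 higher and 1 lower without Myα5KO replicate 2, and 0 higher and 3 lower without ITGA5 fl/fl replicate 2 or 3. Adamts2, Adamts4 and Ctgf each lost their call in 5 of the 6 fits without a library, Spon1 in 3, and Adamts9 in 0.

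Of 14 tested endogenous inhibitors of angiogenesis, Thbs1 was the 1 gene that fell, and the interferon-induced chemokines Cxcl9 (0.98) and Cxcl10 (0.39) rose (median of the list -0.07). The rise of Cxcl9 leaned on Myα5KO replicate 2, which had 31.6 CPM against 13.4 and 15.4 CPM in replicates 1 and 3. Without that library its log2 fold change was 0.50 and was not called, and neither DESeq2 nor limma-voom called it. Cxcl10 lost its call when control replicate 1 (0.28) or Myα5KO replicate 2 (0.33) was dropped. Calls in this list were 0 higher and 3 lower without ITGA5 fl/fl replicate 1, 0 higher and 2 lower without Myα5KO replicate 2, and 1 higher and 0 lower without ITGA5 fl/fl replicate 3. Of 6 tested genes of nitric oxide signaling, Kdr, encoding VEGF receptor 2 and also an endothelial marker above, was higher (0.26, edgeR adjusted p 0.0433). Leaving out any 1 of the 6 libraries, median-ratio or upper quartile scaling, or DESeq2 in place of edgeR each took this call away.

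**Figure D4:**
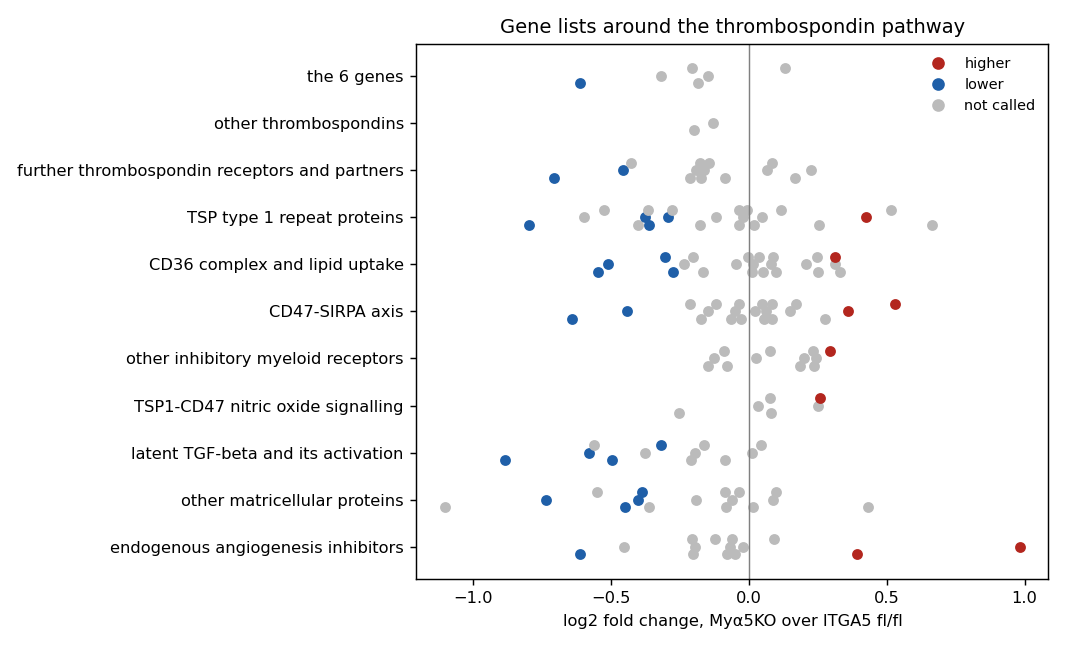
Log2 fold change (x axis, Myα5KO over ITGA5 fl/fl) of each tested gene in the group of 6 and in each list, with genes changed upward in red, downward in blue and not called in grey; points are spread vertically only to separate them. Thbs1 (-0.61) is the 1 coloured point among the 6 genes, and the TGF-β list has 4 blue and 0 red points.

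The genes whose level followed each of the 6 genes most closely were sought among 9361 genes with a mean of at least 100 counts, by Pearson correlation of log2 CPM over the 6 libraries. Genotype and depth differ together over these 6 points, so the values are a description. For Thbs1 the closest was Acsl4 (r = 0.9986), which encodes a ligase of polyunsaturated fatty acids. Mean Acsl4 went from 136.4 ± 6.85 CPM in control to 101.1 ± 14.6 CPM in Myα5KO libraries (log2 fold change -0.43). Acsl4 was picked for following Thbs1 over these same libraries, so this fall is not separate from that of Thbs1. The closest to Thbs2 were Rock1, Mcur1 and Crybg1 (r of 0.9904 to 0.9954), and to Thbs3 Rrp7a, Zfp523 and Csnk2b (0.9655 to 0.9697). Cd36 was closest to Tceal8, Qars and Fcna (0.9785 to 0.9861), Cd47 to Otud3, Nrm and Snapc1 (0.9658 to 0.9903), and Sirpa to Sclt1, Specc1 and Klhl5 (0.9898 to 0.9937). Among the 6 genes themselves, r with Thbs1 was 0.63 for Thbs2, 0.47 for Thbs3, 0.65 for Cd36, 0.68 for Cd47 and -0.70 for Sirpa.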

How the data were processed

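The 6 RNA-seq libraries, from sorted myeloid cells of 3 ITGA5 fl/fl and 3 Myα5KO infarcts, were grouped by their titles. The authors filtered reads, aligned them to GRCm38.p6 with TopHat2 2.0.9 and counted them per gene with HTSeq 0.6.1. The deposited counts are whole and not normalized, and the deposited FPKM values equal the counts divided by gene length and a constant per library. Strand setting and multi-mapping were not stated.

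Differences were assessed by quasi-likelihood F-test with edgeR 4.0.16, run in R 4.3.3 (TMM, minimum count 10, minimum total count 15, no covariate), two-sided, with Benjamini-Hochberg adjustment over 14522 genes. Alternatives were DESeq2 1.42.0, limma 3.58.1 on voom and FPKM values, other scalings, filters and thresholds, a replicate block and leaving out each library. The 5 within-library ratios were compared by exact permutation. The scripts were first tested on simulated data. Libraries came from separate hearts. Counts carry no molecular identifiers, so depth covers counting error only. The genes and lists were chosen with earlier results of these data known. The rule for named genes took the 6 members, Itga5 and Lyz2, the changed genes of each list with values for at most the 6 of largest change among those with a mean of at least 100 counts, and the 3 best-correlated genes of each member, of which some are not reported here. List genes named as not called were chosen after their values were seen.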

Additional observations from a re-analysis of the deposited data

How the results depend on the processing

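The direction of all 6 genes was the same under each alternative in which they were tested, and Thbs2, Thbs3, Cd36, Cd47 and Sirpa were called in none. Thbs3 was not tested on filtered FPKM. Thbs1 kept its call in 13 of 19 alternatives. It lost it at an adjusted p of 0.01 (-0.61), by construction, as its adjusted p in edgeR was 0.0135, and against a minimum of 1.5-fold (-0.61). It also lost it without ITGA5 fl/fl replicate 3, on log2(FPKM + 1) with (-0.64) and without (-0.64) a filter and on log2(FPKM + 0.1) (-0.64). The cause of the loss on FPKM was not tested. In each setting where Thbs1 lost its call, 0 of the 6 genes were changed. With a library left out, the log2 fold change of Thbs1 ran from -0.72 to -0.44, Thbs2 from -0.31 to -0.04, Thbs3 from -0.46 to -0.15, Cd36 from -0.27 to -0.06, Cd47 from -0.24 to -0.06 and Sirpa from 0.10 to 0.16, and 0 to 1 of the 6 genes were changed.

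Over all genes, 1271 were changed (517 higher, 754 lower). The counts were 470 (128 and 342) at an adjusted p of 0.01, 472 (150 and 322) on log2(FPKM + 1), 448 (142 and 306) on log2(FPKM + 0.1), 10 (2 and 8) on log2(FPKM + 1) without a filter and 15 (1 and 14) against 1.5-fold. DESeq2 called 411 higher and 759 lower. Library totals gave 1212 higher and 518 lower genes, and no count filter 798 higher genes, in a fit whose prior degrees of freedom were infinite. With a library left out 616 to 1091 genes were changed (187 to 420 higher, 429 to 671 lower). Of the lists, type 1 repeat proteins had 2 genes changed and other inhibitory receptors 4 with library totals, and nitric oxide signaling 0 with median-ratio and 0 with upper quartile scaling. With a library left out, the numbers changed were 2 to 5 for CD36, 3 to 4 for CD47 and SIRPα, 1 to 3 for angiogenesis inhibitors, 2 to 3 for further receptors, 3 to 5 for TGF-β, 0 to 2 for inhibitory receptors, 2 to 5 for matricellular and 1 to 3 for type 1 repeat genes, and 0 for nitric oxide signaling and for other thrombospondins. Named list genes, Itga5 and Lyz2 kept their direction in every fit, and their alternatives kept the call 381 times and lost it 187 times.

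The replicate numbers showed no sign of pairing the libraries. Deviations from the group mean correlated at 0.051, -0.058 and 0.043 for numbers 1, 2 and 3, and at -0.101 to 0.063 for unlike numbers. With so few libraries this cannot decide whether the animals were paired. With the replicate number as a block, 1181 genes were changed and Thbs1 had a log2 fold change of -0.64 and was still called.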
